A study of Bos taurus and Felis catus with 14 samples.

Results

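The hairpins of the mir-23, mir-27 and mir-24 microRNA families were taken from the bovine and feline sets of loci predicted from small RNA sequencing. A locus was a member when its name held family number 23, 27 or 24, with any letter, copy number or suffix, and names that mark an antisense locus were left out. The rule found 12 of the 1305 loci, 6 of 810 in the cow and 6 of 495 in the cat, and each of the 3 families had 2 members in each species.

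The bovine set rested on 10 small RNA libraries from 10 tissues of 3 Angus steers: retina, iris, optic nerve and brain stem, submandibular lymph node and bone marrow, and penis, dental pulp, corium and oral papillae. Of these, 8 came from 1 steer. The feline set rested on 4 libraries, 2 of skin and 2 of muscle, from 3 neutered male domestic short hair cats. The feline tissue was described as normal, the labels name no treatment for either species, and no group was compared with another within a species. The libraries of a species were pooled before loci were called, so each species gave 1 set of positions with no replicate, and a level or a tissue for a locus was not analysed here. A cow and cat difference therefore carries no error, and species, tissue and the number of libraries cannot be told apart.

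A microRNA gene is transcribed as a long RNA in which a hairpin forms. Drosha cuts the hairpin out in the nucleus, Dicer removes its loop in the cytoplasm, and a short product can remain from each arm, named 5p and 3p after its place in the hairpin. Bases 2 to 8 of a product, the seed, carry most of its pairing to target messenger RNAs. The mir-23, mir-27 and mir-24 hairpins lie beside each other in 2 paralogous clusters of mammalian genomes and can be cut from 1 shared transcript. Their products are known from blood vessels, blood and immune cells, muscle and fat. miR-23 and miR-27 are related in their seeds, whereas miR-24 has a seed of its own. The main product of each of these families comes from the 3p arm, and the 2 genomic copies of a family make main products that are the same or nearly the same, so that a read of one can fit the other copy.

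The human products of the a cluster, the better known relatives of the bovine and feline products, are shown for their seeds, which are in capitals. They were read from the study's table for its human sets, which lists 1 sequence per product, and are written 5′ to 3′ with T for U. Bovine and feline sequences were not used here, so whether these bases are the same in cow and cat was not checked. The capitals mark the seed of each sequence as listed, so they depend on its listed first base. Whether that base starts the known human product, for mir-24-2-5p among others, was not checked either.
hsa-mir-23a-3p: aTCACATTgccagggatttcc
hsa-mir-27a-3p: tTCACAGTggctaagttccgc
hsa-mir-24-2-3p: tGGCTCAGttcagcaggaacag
hsa-mir-23a-5p: gGGGTTCCtggggatgggattt
hsa-mir-27a-5p: aGGGCTTAgctgcttgtgagca
hsa-mir-24-2-5p: gTGCCTACtgagctgaaacacagt
The 3p seeds of mir-23a and mir-27a shared their first 5 of 7 bases, TCACA. The seed of mir-24-2-3p shared 0 leading bases with either of them.

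All 6 bovine members and 5 of the 6 feline members carried a plain family name. The exception was the feline mir-23 hairpin beside mir-27a and mir-24-2. Its name has no letter and ends in a suffix for loci outside the annotation, and it is treated here as the counterpart of mir-23a by position. The a cluster is mir-23a, mir-27a and mir-24-2, and the b cluster is mir-23b, mir-27b and mir-24-1. No source used here names the genome build of the coordinates. Feline sequences are named as in the deposited set, with a version that was not traced to a build here.

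In the cow the a cluster lay on the minus strand of chromosome 7. There bta-mir-23a took positions 12981977 to 12982034, bta-mir-27a took 12981797 to 12981857, and bta-mir-24-2 took 12981644 to 12981702. The b cluster lay on the plus strand of chromosome 8, with bta-mir-23b at 83009593 to 83009693, bta-mir-27b at 83009816 to 83009924, and bta-mir-24-1 at 83010360 to 83010455. In the cat the a cluster lay on the minus strand of NC_018724.2. It held the mir-23 hairpin without a letter at 9832425 to 9832483, fca-mir-27a at 9832234 to 9832295, and fca-mir-24-2 at 9832096 to 9832156. The feline b cluster lay on the plus strand of NC_018735.2, with fca-mir-23b at 29096892 to 29096994, fca-mir-27b at 29097125 to 29097233, and fca-mir-24-1 at 29097677 to 29097738.

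All 6 bovine names were found in the RefSeq gene table of assembly ARS-UCD2.0, a build that may differ from that of the coordinates. There the 3 entries of the b cluster lay inside AOPEP, which encodes an aminopeptidase, between the coding genes FBP1 and FANCC. The 3 entries of the a cluster lay within the gene entry LOC132345691, whose type is not given here. NANOS3 and ZSWIM4 were the coding genes before and after them. Which strand or which exon or intron of these genes held the hairpins was not analysed here.

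The order along the strand was mir-23, mir-27, mir-24 in all 4 clusters. The 3 hairpins of a cluster were on 1 strand, and no other locus stood among them or within 10 kb, the distance that made neighbours a cluster here. All 12 members were thus in a cluster of exactly 3 loci. Of all loci, 29.0% were in a cluster in the cow and 33.3% in the cat. The bovine set held 77 clusters, 16 of them with 3 loci, and the feline set 57, of which 11 had 3 loci.

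The a cluster was the more compact in both species. From the first to the last base of its hairpins it covered 391 nt in the cow and 388 nt in the cat, against 863 and 847 nt for the b cluster. On called ends the species thus differed by 3 nt over the a cluster and by 16 nt over the b cluster. The called end of the b cluster lay 16 nt beyond its last product in the cow and 1 nt in the cat. Its called start lay 22 and 23 nt before the first product, so the difference of 16 nt depends on where mir-24-1 was ended. The paralogs differed far more within a species than the species did for either paralog.

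**Figure D1:**
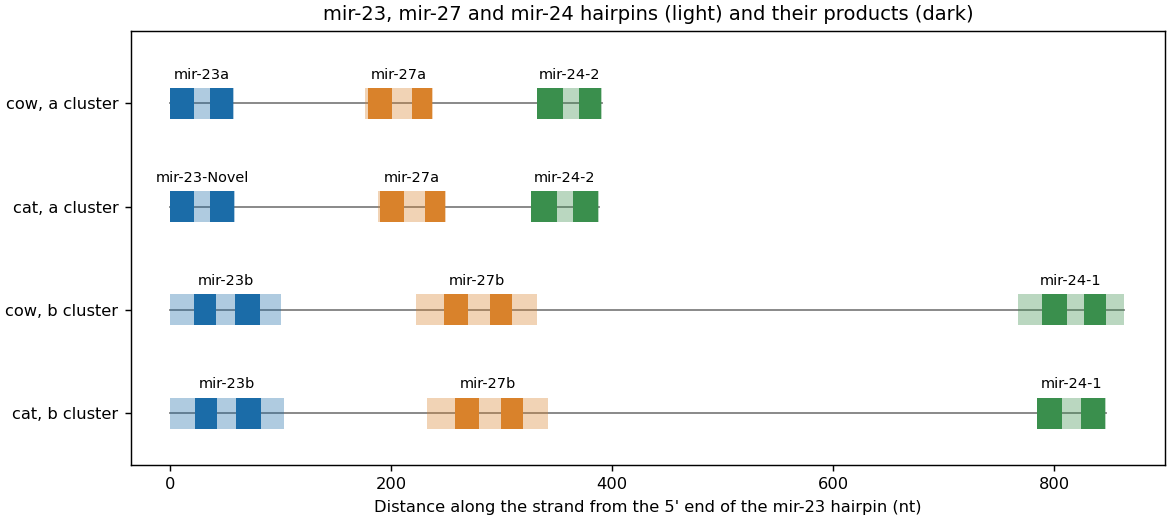
Maps of the a and b clusters in cow and cat, to scale, with distance in nt along the strand from the 5′ end of the mir-23 hairpin; light boxes are called precursors and dark boxes their 5p and 3p products. The clusters share their order, the a clusters cover 391 and 388 nt and the b clusters 863 and 847 nt, and the longer stretch of the b clusters lies between mir-27b and mir-24-1.

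The gap between the mir-23 and mir-27 hairpins was close to equal in the paralogs, whereas the gap between mir-27 and mir-24 was not. From precursor to precursor, mir-23a and mir-27a stood 119 nt apart in the cow and 129 nt in the cat. For mir-23b and mir-27b these gaps were 122 nt and 130 nt. The gap from mir-27a to mir-24-2 was 94 nt in the cow and 77 nt in the cat, and that from mir-27b to mir-24-1 was 435 nt and 443 nt. The mir-27 to mir-24 gap was therefore 4.63 times as long in the b cluster as in the a cluster in the cow, and 5.75 times as long in the cat.

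Precursor ends were set by the caller, and 5 of the 6 b hairpins, all but feline mir-24-1, were called with longer ends. Measured from the last product of a hairpin to the first product of the next, the mir-23 to mir-27 gap was 122 nt in the a cluster and 166 nt in the b cluster of the cow. In the cat these product gaps were 132 and 175 nt. On this measure the b gap was thus 44 nt longer in the cow and 43 nt longer in the cat, where precursor ends had given 3 and 1 nt. The product gap from mir-27 to mir-24 was 95 nt in the a cluster and 479 nt in the b cluster of the cow, and 78 and 465 nt in the cat. The near equality of the first gap rested on precursor ends, while the difference of the second was present on both measures.

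Between the species, 3 of the 4 precursor gaps were shorter in the cow. The mir-23a to mir-27a gap was shorter by 10 nt, a log2 ratio of cow to cat of -0.12, and the mir-23b to mir-27b gap was shorter by 8 nt, a log2 ratio of -0.092. The mir-27b to mir-24-1 gap was also shorter by 8 nt, a log2 ratio of -0.026. The mir-27a to mir-24-2 gap was the exception, longer in the cow by 17 nt, with a log2 ratio of 0.29. Measured from start to start, 155 nt in the cow and 139 nt in the cat, its log2 ratio was 0.16. Measured between products, the first 2 of these gaps remained shorter in the cow, by 10 and 9 nt, and mir-27a to mir-24-2 remained longer by 17 nt. The mir-27b to mir-24-1 product gap was longer in the cow by 14 nt, so its direction turned with the measure.

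For comparison, 68 pairs of neighbouring hairpins could be matched between the species by name, the 4 of these clusters among them. Over the 68 pairs the median absolute log2 ratio of the precursor gaps was 0.064, and over the 4 it was 0.10. The bovine gap was the shorter in 37 pairs, the longer in 27 and equal in 4. Absolute ratios ran from 0, as for mir-181c to mir-181d, to 2.34. The largest ratio set bovine mir-376d to mir-654, 89 nt apart, against feline mir-376c to mir-654, 451 nt apart, a match on 1 full name. Ranked from the smallest of the 68, mir-27b to mir-24-1 stood at 17, mir-23b to mir-27b at 40, mir-23a to mir-27a at 46 and mir-27a to mir-24-2 at 56. The 4 gaps of these clusters lay inside the spread of the other pairs. Matches by name can join loci that are not true counterparts, and the pair at the wide end of this spread joined unlike names, mir-376d and mir-376c.

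**Figure D2:**
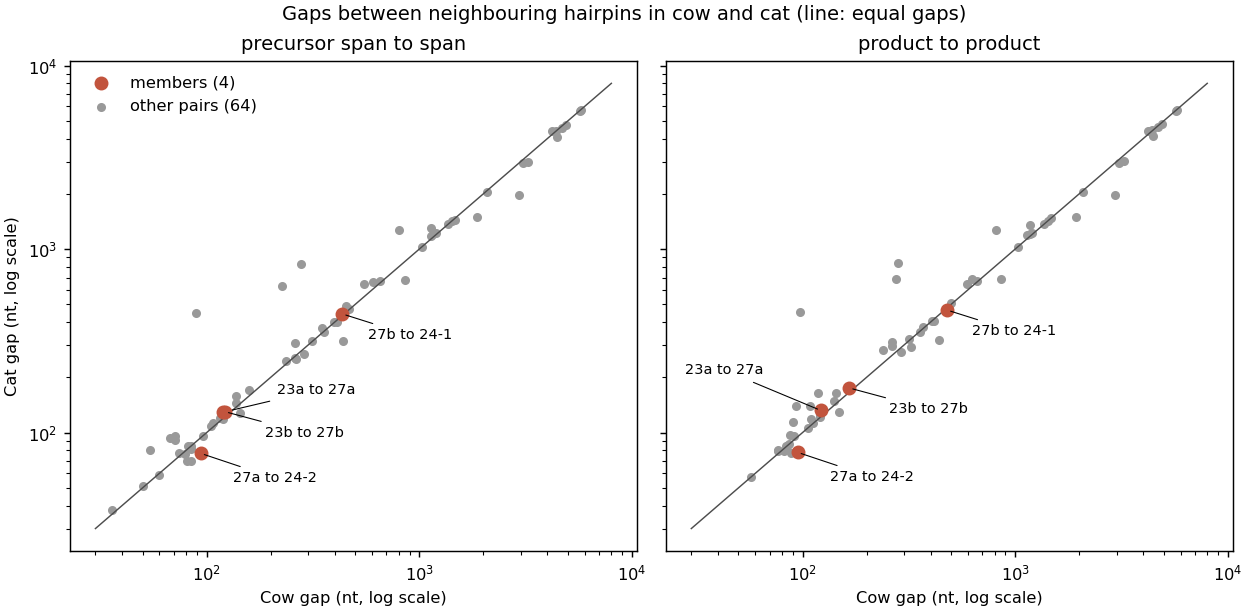
Gap between neighbouring hairpins in cow (horizontal) and cat (vertical), in nt on log scales, for the 68 matched pairs, measured between precursors (left) and between products (right); the line marks equal gaps and red points are the 4 pairs of mir-23, mir-27 and mir-24. The red points lie near the line, and mir-27a to mir-24-2 lies below it, with the longer gap in the cow.

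Every member had a product from both arms, 12 of 12 loci and 24 products. Over all loci the share with both arms was 72.5% in the cow and 65.7% in the cat. Of the 201 loci matched between the species, these members among them, 170 had both arms in both species. The balance between the arms was not analysed here, since the deposited sets give positions and the read numbers in the study's supplement were not used.

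The distance between the products of a hairpin was equal or nearly equal in the species. In what follows, spacing is the distance from the first base of the 5p product to the first base of the 3p product. For mir-23 the spacing was 36 nt in the a cluster and 37 nt in the b cluster, the same in cow and cat. For mir-27a it was 40 nt in the cow and 41 nt in the cat, and for mir-27b 42 nt in both. For mir-24-2 it was 38 nt in both, and for mir-24-1 38 nt in the cow and 39 nt in the cat. Spacing was thus equal in 4 of the 6 hairpins, and the other 2 were 1 nt wider in the cat. Of all 170 hairpins matched between the species with both arms, 79.4% had equal spacing. In each species the order of the families was the same, with the narrowest spacing in mir-23 and the widest in mir-27, and the median over all loci was 38 nt in both.

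The mir-23 products were nearly alike in the species and differed between the paralogs. The 5p product of mir-23a was 22 nt long in both species, and its 3p product was 21 nt in the cow and 22 nt in the cat. In mir-23b the 5p product was 20 nt and the 3p product 23 nt in both species. The 2 paralogs therefore differed in both products, while the species differed in 1 product by 1 nt.

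The mir-27 products were of the same lengths in cow and cat. The 5p product was 22 nt in both paralogs. The 3p product, which holds the main miR-27 sequence, was called at 18 nt in mir-27a and at 20 nt in mir-27b, in both species. A 3p product of 18 nt was rare: 4 of 736 in the cow, or 0.543%, and 4 of 433 in the cat, or 0.924%, where the median was 22 nt. The human mir-27a-3p shown above has 21 nt. Which bases the shorter bovine and feline products lack was not analysed here.

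The mir-24 products differed between the species in both arms. In mir-24-2 the 5p product was 24 nt in the cow and 23 nt in the cat, and the 3p product was 20 nt in the cow and 22 nt in the cat. In mir-24-1 the 5p product was 23 nt in the cow and 22 nt in the cat, and the 3p product again 20 and 22 nt. All 4 mir-24 products thus differed, with the 5p product 1 nt longer and the 3p product 2 nt shorter in the cow in both paralogs. A read of the shared main miR-24 product can be placed on both copies, so the 2 copies are not independent of each other. A 3p product of 20 nt made up 7.34% of bovine and 6.93% of feline 3p products. One of 22 nt made up 51.8% of bovine and 48.5% of feline 3p products.

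**Figure D3:**
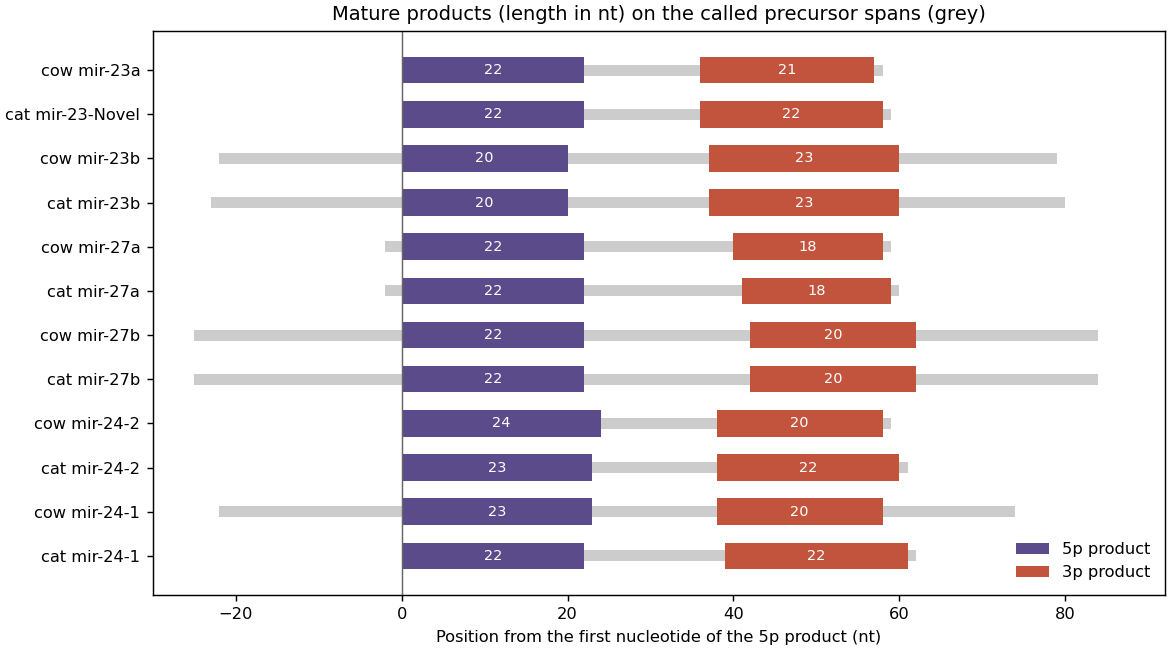
Called precursors (grey) and their 5p and 3p products, with lengths in nt, for the 12 members, aligned at the first base of the 5p product. The start of the 3p product lies 36 to 42 nt from that of the 5p product, the 3p products of mir-27a are 18 nt long, and the b precursors of mir-23 and mir-27 reach far beyond their products.

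Counted over the 6 matched hairpins, 7 of 12 products had the same length in both species, and 5 did not, namely the 4 of mir-24 and the 3p product of mir-23a. Over all matched products the share was 77.9%, 289 of 371. A difference of at least 2 nt was seen in 2 of the 12 products, both from mir-24, and in 30 of the 371, or 8.09%. Products of 1 hairpin, and copies that can share reads, are not independent items.

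**Figure D4:**
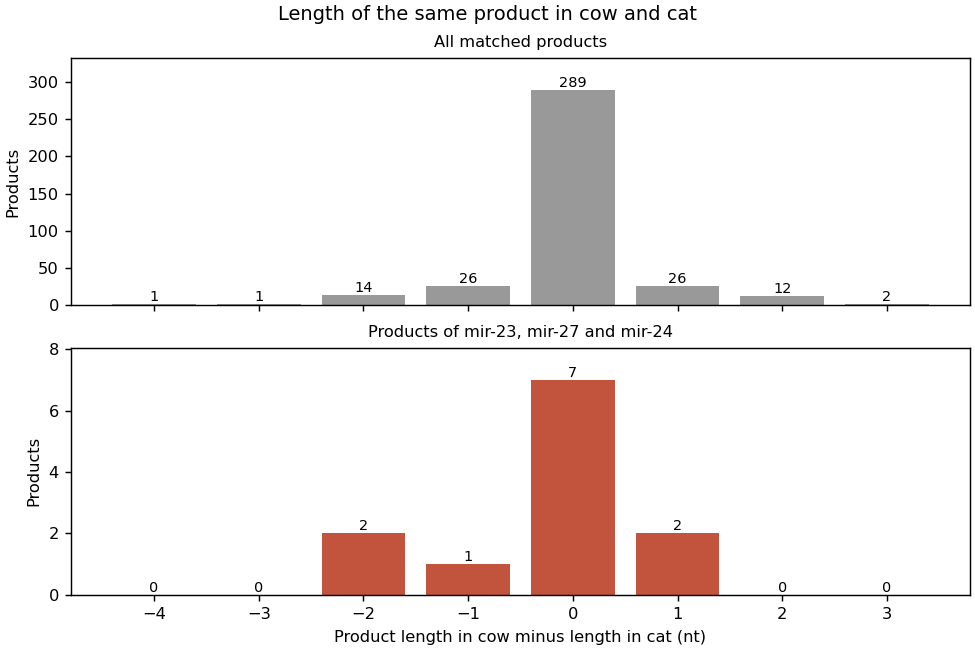
Number of products by their length in cow minus their length in cat, in nt, for all 371 matched products (top) and for the 12 of mir-23, mir-27 and mir-24 (bottom). The bar at 0 holds 289 and 7 products, and the 2 members at -2 are the 3p products of mir-24-2 and mir-24-1.

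The called precursors differed more between the paralogs than their products did. In the a cluster they were 58, 61 and 59 nt long in the cow for mir-23a, mir-27a and mir-24-2, and 59, 62 and 61 nt in the cat. In the b cluster bovine mir-23b, mir-27b and mir-24-1 took 101, 109 and 96 nt. Feline mir-23b and mir-27b were as long, with 103 and 109 nt, but feline mir-24-1 took 62 nt. From the start of the 5p product to the end of the 3p product, in contrast, all 12 hairpins covered 57 to 62 nt.

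The added length lay outside the products. Bovine mir-23b had 22 nt before its 5p product and 19 nt after its 3p product, bovine mir-27b 25 and 22 nt, and bovine mir-24-1 22 and 16 nt. Feline mir-23b had 23 and 20 nt, and feline mir-27b 25 and 22 nt. Feline mir-24-1 and the 6 hairpins of the a cluster had 0 to 2 nt before the 5p product and 1 nt after the 3p product. Flanks of at least 10 nt on both sides were found in 13.3% of bovine and 8.62% of feline loci with both arms, and 5 of the 12 members were among them, all from the b cluster. The median flanks over all loci were 2 and 3 nt in both species. The span of mir-24-1 is therefore 34 nt longer in the cow than in the cat, although its products together covered 58 nt in the cow and 61 nt in the cat.

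**Figure D5:**
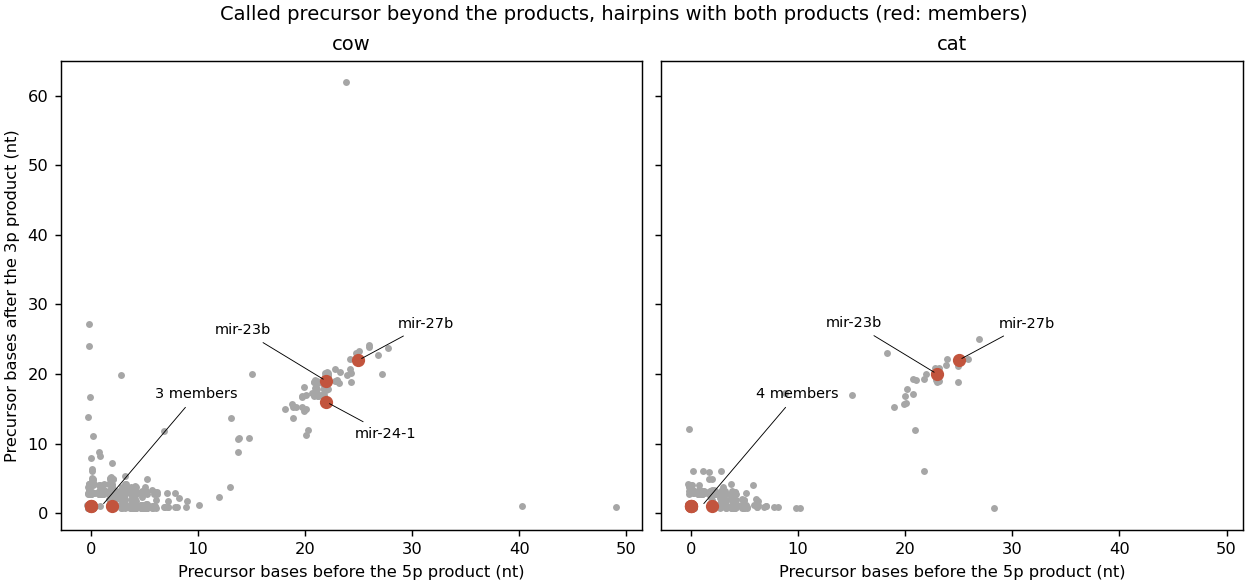
Precursor bases before the 5p product (horizontal) and after the 3p product (vertical), in nt, for every bovine (left) and feline (right) locus with both arms; points other than the members are moved by up to 0.3 nt to part them. Bovine mir-23b, mir-27b and mir-24-1 and feline mir-23b and mir-27b lie in the group with long flanks, and the other members lie near the origin.

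The bovine spans also differed from the RefSeq entries of the same names, whose own lengths ran from 60 nt for MIR23B to 97 nt for MIR27B. In the a cluster the deposited spans were shorter than the entries, by 15 nt for mir-23a, 17 nt for mir-27a and 13 nt for mir-24-2. In the b cluster they were longer, by 41 nt for mir-23b, 12 nt for mir-27b and 28 nt for mir-24-1. These b hairpins are the bovine members called with long flanks. Other bovine loci were not compared with their entries, so no share is given beside these values.

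Beyond the clusters, the nearest loci were the mir-181c and mir-181d hairpins for the a cluster in both species. mir-181 is a family best known from lymphocytes and the nervous system. In the cat, fca-mir-181c lay 27178 nt and fca-mir-181d 27359 nt from the mir-23 end of the cluster, upstream of it and on the opposite strand. In the cow, bta-mir-181d lay 66309 nt and bta-mir-181c 66492 nt from the mir-24-2 end, downstream of the cluster and also on the opposite strand. The pair thus stood at opposite ends of the cluster in the bovine and the feline set. In the RefSeq table of ARS-UCD2.0, however, the bovine mir-23 end faced the pair, as in the feline set, and the cause was not tested. The b cluster had no other locus within 50 kb in either species. Its nearest neighbour was bta-let-7a-1, 3874420 nt downstream, in the cow, and fca-Novel146, 2093473 nt upstream, in the cat.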

How the data were processed

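Total RNA was made into small RNA libraries and sequenced. Per the methods and the submitters' processing notes, the authors trimmed reads with cutadapt 1.15, aligned them with Bowtie 1.2.11, used SAMtools, dropped reads that matched more than 10 places, and called loci with miRWoods once per species, on its pooled libraries. The build they aligned to is not named in the sources used here. The deposited values are positions counted from 1, with strand and name, and no score or read number. The read numbers in the study's supplement were not used here, so no depth is given per locus, and with 1 set per species no test was run.

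Names, gaps (bases between spans, with product to product and start to start as alternatives), clusters (neighbours at most 10 kb apart, on either strand), arms and product positions were computed in Python 3.11.15 and drawn with matplotlib 3.10.9. Finding clusters, matching pairs of equal full names and measuring gaps between spans were tested on simulated lists. Arms, product positions, the alternative gaps and matches by 1 name or by families were not tested in this way. Neighbour pairs were matched by a full name that 1 of the loci had in both species, or by a unique pair of families. Loci named are the members, other loci within 50 kb, the nearest locus to each cluster and the matched pairs with the smallest and largest ratio. Members and lists were chosen with earlier results of these data known. The RefSeq table of ARS-UCD2.0 served for names, order and entry lengths, with 6 of 6 bovine members matched.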

Additional observations from a re-analysis of the deposited data

How the results depend on the processing

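Of 34 alternative values, 22 stayed within the limits set for a change, 11 moved and 1 reversed. The limits were not alike for all results, and the 22 are not all unchanged values. Among them, equal product lengths went from 7 to 10 within 1 nt, and equal spacing from 4 to 6 hairpins. The median ratio of matched pairs, in contrast, counted as moved at 0.0644 in place of 0.0636. The reversed value was the log2 ratio of cow to cat for the mir-27b to mir-24-1 gap, -0.026 between precursors and 0.043 between products; the called span of mir-24-1, 96 nt in the cow and 62 nt in the cat, enters only the first. With product gaps, 2 in place of 3 gaps were shorter in the cow. From start to start the ratio for mir-27a to mir-24-2 fell from 0.29 to 0.16, while the difference was 16 nt in place of 17 nt. That measure adds the called length of mir-27a to the gap in each species. The median absolute ratio of matched pairs, 0.0636, was 0.0672 over the 30 pairs in which both full names were equal and 0.0644 between products. All 12 members stayed in 4 complete clusters at 1, 5 and 50 kb and on 1 strand alone. These settings could not have changed that count, since the longest gap between members was 443 nt and each cluster lay on 1 strand. Counting antisense names could not change the members either, as these families had 0. Such values are among the 22. At 50 kb the feline a cluster held 5 loci, with mir-181c and mir-181d. With products of 20 to 24 nt only, 10 of 12 members kept both arms, since the 3p product of mir-27a was left out in both species. Equal product lengths numbered 6 with the same full names only and 10 within 1 nt. Within 1 nt, a tolerance chosen after seeing the data, all 6 hairpins had equal spacing, as had 91.2% of all. No paired analysis was possible because each species has 1 pooled set, and no replicate or depth can bound these values.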

Other observations

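The order of the a cluster relative to mir-181c and mir-181d was also read from the RefSeq table of ARS-UCD2.0, without its coordinates. There MIR181D and MIR181C came first, followed by MIR23A, MIR27A and MIR24-2, so that the mir-23 end of the cluster faced the mir-181 pair, as in the feline set. In the deposited bovine set the mir-24-2 end faced it. The cause, the assembly among others, was not tested.

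The mir-24 length pattern was counted over all matched hairpins after its values had been seen. Of the 170 matched hairpins with both arms, 11 differed between cow and cat in the length of both products, mir-24-1 and mir-24-2 among them. In 3 of the 170 the 5p product was longer and the 3p product shorter in the cow, and the 2 that did so by 1 and 2 nt were these 2 hairpins. Counted in the same way, mir-27a-3p was the 1 product of 186 matched 3p products that had 18 nt or fewer in both species.

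In the RefSeq table MIR2475, named here after its place was seen, was the entry before MIR23B, while mir-2475 had 0 loci in the bovine and in the feline set.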
